A study of Homo sapiens with 4 samples.

Results

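Heat shock proteins and their cochaperones were examined in naive NB4 cells and in an NB4 line resistant to arsenic trioxide (ATO). Members were taken by gene name, under a rule set with earlier results of these data known. They are every probe of the array named for an HSPA, HSPB, HSPD, HSPE, HSPH or HSP90 gene, a DNAJA, DNAJB or DNAJC gene, BAG1 to BAG6, or HSF1 to HSF4. The names gave 134 of the 41000 probes on the array, for 80 genes. Testing was limited to probes that stood well above background in both flasks of one line or of both lines, which left 119 member probes for 70 genes, out of 28221 probes and 20964 gene names in all. The HSPB pattern also took in HSPBP1 and HSPBAP1, which bind heat shock proteins, and HSPB11, a gene now called IFT25 that acts in cilia. The HSP90 pattern took in the pseudogene HSP90AB6P.

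NB4 is an established human line of acute promyelocytic leukemia, grown in RPMI medium with 10% FBS. The labels mark 2 samples as naive and 2 as ATO resistant, and the study's methods describe each sample as an independent flask. The resistant cells are a single clone, derived in the laboratory and written NB4-VM-AsR1 in the labels and NB4-EV-AsR1 in the methods, and both names are taken here for 1 clone. Per the methods it had been without ATO for 1 week, so no flask held the drug when RNA was taken. Cy3-labelled RNA of each flask went to its own 1-colour Agilent array, and all 4 arrays lay on 1 slide, naive before resistant, so that line and position on the slide cannot be told apart. Between 27922 and 28244 probes per array were well above background and between 457 and 565 were saturated. Of 9 promyelocyte markers, 8 were well above background on all 4 arrays, MPO among them. So were 2 of 3 T cell, 2 of 3 B cell, 2 of 4 erythroid and 2 of 3 endothelial markers, and 0 of 4 fibroblast markers. Of all these markers, ANPEP and CD3D were called lower and AZU1 and ELANE higher in the resistant line.

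Heat shock proteins are chaperones that hold unfolded proteins and help them to fold. HSP70 proteins bind and release clients by splitting ATP, DNAJ proteins bring clients and start the ATP step, and HSP110 and BAG proteins help to exchange the nucleotide afterwards. HSP90 takes over partly folded clients such as kinases and steroid receptors, HSP60 with HSP10 folds proteins inside mitochondria, and small HSPs hold clients without ATP. Under heat, arsenic or other stress the factor HSF1 binds repeated GAA units in promoters, the heat shock element, and switches on the inducible members of each family.

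All levels below are log2 signals after subtraction of the array's 75th percentile, so that 0 stands for that percentile, and a change is the mean of the resistant flasks minus the mean of the naive flasks. Levels of different probes are not comparable with each other. The brightest tested probe stands for a gene, and a probe was called at an adjusted p below 0.05 in limma and a change of at least 2-fold. By that rule 2 of the 70 tested genes were called, HSPB1 and DNAJC15, both lower in the resistant line, beside 5.47% of all genes (2.49% higher and 2.98% lower). Over single probes, 6 of 119 were called, beside 5.27% of all probes (2.3% higher and 2.97% lower). They belong to 4 genes, HSPA1A, HSPB1 and DNAJC15 lower and DNAJC22 higher. The share of members called was thus close to the background by probes and below it by genes. With only 2 flasks per line an exact two-sided permutation test on 1 probe cannot go under 0.333, and a call depends on the error that limma moderates with that of all other probes.

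The probes of these 4 genes are shown first, since what was called depends on which stretch of a transcript a probe reads. Each line gives the first 30 of the 60 bases of a probe, in transcript direction, and the start of the probe on its transcript follows in the text. Capitals in the HSPB1 probes mark 11 of the 41 bases that both of them contain.
HSPA1A, A_24_P682285: gtttgagggcatcgacttctacacgtccat
HSPA1A, A_24_P123616: tgccccagatcgaggtgaccttcgacatcg
HSPA1A, A_23_P111132: gagcttcaagactttgcatttcctagtatt
HSPB1, A_24_P86537: atgcccaagctagccacgcAGTCCAACGAG
HSPB1, A_23_P257704: AGTCCAACGAGatcaccatcccagtcacct
HSPB1, A_32_P76247: agctgcaaaatccgacgagactgccgccaa
DNAJC15, A_23_P117190: gtgtaagcccatctgctggcaaggctaaga
DNAJC22, A_32_P407245: agctatgtggcagaaacctttggctccttc
DNAJC22, A_23_P253661: ctttgcccacgaatggcatcccaacagagt
The HSPA1A probes start at bases 1103, 1654 and 2200 of the transcript, in the order shown. By the accessions in the file, the first 2 match the transcripts of both HSPA1A and its near-identical neighbour HSPA1B, which has no probe under its own name, and the last matches HSPA1A alone. The HSPB1 probes start at bases 659, 678 and 739, so the first 2 overlap and are not independent readings, while a gap of 1 base separates the second from the last.

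HSPA1A encodes the main stress-inducible HSP70 of the cytosol. Its own probe (A_23_P111132, chr6:31785491-31785550 of hg19, the build of the file header) read 4.21 and 2.72 in the naive flasks and -6.99 and -7.14 in the resistant flasks. The naive flasks were far above the array's 75th percentile, and in neither resistant flask was the signal well above background. The signal was therefore at least 981-fold lower in the resistant line, a bound taken from the dimmest level that still counted as well above background, with an adjusted p of 0.000972 in limma. The probe entered the test through the naive line alone, so the p-value is no independent support for the drop. Without naive flask 1 the bound was 587-fold and without naive flask 2 it was 1640-fold. Normexp background correction was run with an offset of 50 added to each signal, which by itself shrinks the change of a dim probe. With normexp the log2 change of this probe was -6.13 and was not called. With bright local backgrounds reset before normexp it was -7.17 and was called.

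The 2 probes shared with HSPA1B were lower in the resistant flasks by far less and were not called. Probe A_24_P123616, the brighter of them and the probe that stands for the gene, read 1.98 and 0.51 in naive and -0.81 and -1.48 in resistant cells. Probe A_24_P682285 read 1.56 and -0.04 in naive and -1.49 and -2.10 in resistant cells. On both the lines did not overlap and the resistant signal was well above background. Their log2 changes were -2.39 and -2.55, with standard errors of 0.54 and 0.57 and adjusted p-values of 0.0844 and 0.0804. Naive flask 1 was above naive flask 2 by 1.48, 1.48 and 1.61 on the log2 scale at the 3 HSPA1A probes, and this gap enters the standard errors. At the brighter shared probe the log2 change was -1.65 without naive flask 1 and -3.13 without naive flask 2. HSPA1A was called lower at that probe with scale normalization, with bright local backgrounds reset before normexp and with the replicate block (log2 change of -2.39). It was not called there with the median shift, quantile normalization, the deposited log2 values or the methods' t-test. The mean of its 3 probes (-5.16) was called lower, but that mean includes the probe already called by itself.

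HSPB1, the small heat shock protein also known as HSP27, was lower at all 3 of its probes. The brightest read 4.00 and 3.71 in the naive flasks and 2.01 and 2.16 in the resistant flasks. Probe A_23_P257704 read 3.77 and 3.46 against 1.84 and 1.87, and probe A_24_P86537 read 3.35 and 2.99 against 1.42 and 1.52. In every case both resistant flasks lay more than 1 log2 unit under the lower naive flask. The log2 changes were -1.77, -1.76 and -1.70 with standard errors of 0.24, 0.24 and 0.24, and adjusted p-values of 0.0171, 0.0170 and 0.0216 in limma. This is a fold change between 3.25 and 3.41. Probes A_24_P86537 and A_23_P257704 lie at chr7:75933377-75933436 and chr7:75933396-75933455 of hg19. The file places A_32_P76247 on chromosome 9 (chr9:74622771-74622830) although its accession is that of HSPB1, so that its link to the gene rests on the accession alone. Without either resistant flask HSPB1 was no longer called, with log2 changes of -1.69 and -1.85. With normexp, under which no probe of the array was called, its log2 change was -1.79.

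DNAJC15, a J protein of the inner mitochondrial membrane also known as MCJ, has 1 probe, which starts at base 705 of the transcript and has no position in the file. It read 0.88 and 0.54 in the naive flasks and -8.59 and -8.80 in the resistant flasks. The resistant flasks were not well above background, and DNAJC15 was at least 145-fold lower, with an adjusted p of 0.000509 in limma. The p-value is no independent support for this, because DNAJC15 entered the test through the naive line alone. It was called without each of the 4 flasks in turn. The size depended on the background correction and its offset, which were not told apart. The log2 change was -3.54 with normexp, without a call, and -4.63 with bright local backgrounds reset, with a call.

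DNAJC22, a membrane protein with a J domain, was the only member with a probe called higher, and its 2 probes differed. A_23_P253661, which starts at base 1491 of the transcript (chr12:49745350-49745409 of hg19), read -8.50 and -8.40 in naive and -4.34 and -3.98 in resistant cells. The naive flasks were not well above background, and the probe was at least 4.29-fold higher in the resistant line (adjusted p = 0.00136 in limma). This probe entered the test through the resistant line alone, so the p-value is no independent support for the rise. A_32_P407245, which starts at base 1025 (chr12:49743280-49743339), read -4.30 and -4.33 in naive and -4.42 and -4.57 in resistant cells. Its log2 change was -0.18 with a standard error of 0.22 and was not called (adjusted p = 0.701). With bright local backgrounds reset before normexp, and the same offset of 50, A_23_P253661 was not called either, at a log2 change of 0.86. Of all genes with at least 2 tested probes, 3.97% had probes that disagreed in the call.

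**Figure D1:**
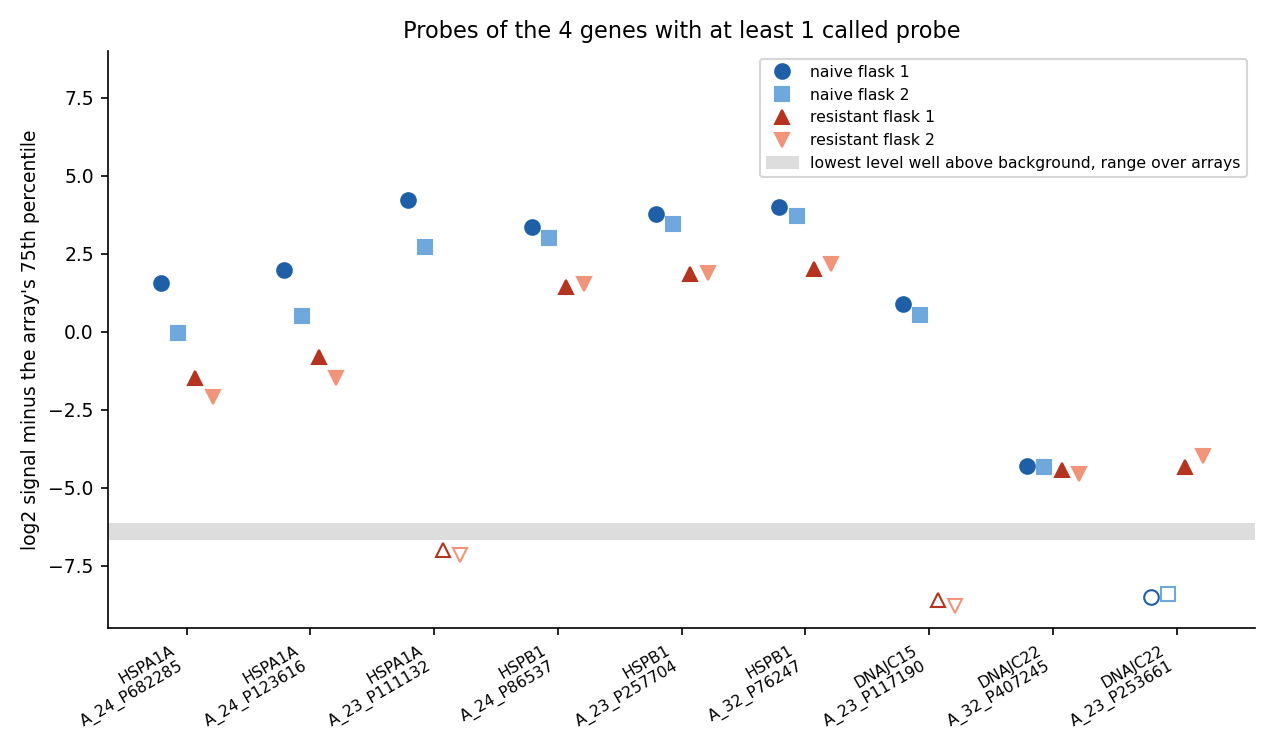
Level of each probe of HSPA1A, HSPB1, DNAJC15 and DNAJC22 in the 4 flasks, as log2 signal minus the array's 75th percentile. Open symbols are not well above background in that line. All 3 HSPB1 probes fell, while 1 of 3 HSPA1A probes dropped to the background and 1 of 2 DNAJC22 probes rose from it.

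The promoters of HSPA1A and HSPB1 are shown because each of these textbook targets of HSF1 had a probe called lower in the resistant line. The 250 bases before the start site are given, from RefSeq (GRCh38.p14, plus strand), at chr6:31815293-31815542 and chr7:76302423-76302672. Capitals mark GAANNTTC, a pair of facing GAA units, found at base -106 of HSPA1A and base -182 of HSPB1 counted from the start site.
HSPA1A: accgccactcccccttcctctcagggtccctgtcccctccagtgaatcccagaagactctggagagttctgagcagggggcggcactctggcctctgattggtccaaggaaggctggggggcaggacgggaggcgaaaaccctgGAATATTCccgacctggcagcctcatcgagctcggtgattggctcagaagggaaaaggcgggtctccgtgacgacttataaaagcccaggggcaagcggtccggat
HSPB1: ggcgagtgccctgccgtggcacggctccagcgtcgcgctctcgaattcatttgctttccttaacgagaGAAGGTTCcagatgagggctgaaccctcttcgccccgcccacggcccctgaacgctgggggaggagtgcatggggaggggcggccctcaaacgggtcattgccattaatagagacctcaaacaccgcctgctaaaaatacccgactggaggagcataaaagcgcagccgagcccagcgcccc
A full element of 3 units (GAANNTTC then NNGAA, or TTCNNGAA then NNTTC, on either strand) was searched in 300 bases (250 before and 50 from the start site) and was in neither promoter. It was in 4 of the 70 member promoters that the table holds, those of DNAJA1, DNAJB6, HSPA6 and HSPA8, and in 0.490% of all 35116 promoters. The pair of units (GAANNTTC or TTCNNGAA), a shorter motif contained in the full element and added after its matches were seen, was in 14 of the 70 and in 13.5% of all. The 4 members with the full element were not called, with log2 changes of -0.06 for DNAJA1, -0.27 for DNAJB6 and 0.22 for HSPA6 and a saturated signal for HSPA8. The DNAJC15 promoter holds a pair of units at base -189. The ER stress element (CCAAT and CCACG with 9 bases of any kind between them, on either strand) was in the promoters of HSPA5 and HSP90B1 and in 0.0769% of all.

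Across the 70 tested genes the median log2 change was -0.05, beside -0.01 over all 20964 genes. The 2 flasks of one line lay wholly above or below those of the other for 35 of the 70 (16 higher and 19 lower), beside 53.8% of all genes (25.4% higher and 28.4% lower). At the brightest probe a change of at least 2-fold was fitted for 5 members, HSPA1A, HSPA2, HSPB1, DNAJC15 and DNAJC18, beside 12.6% of all genes, and all 5 were lower.

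**Figure D2:**
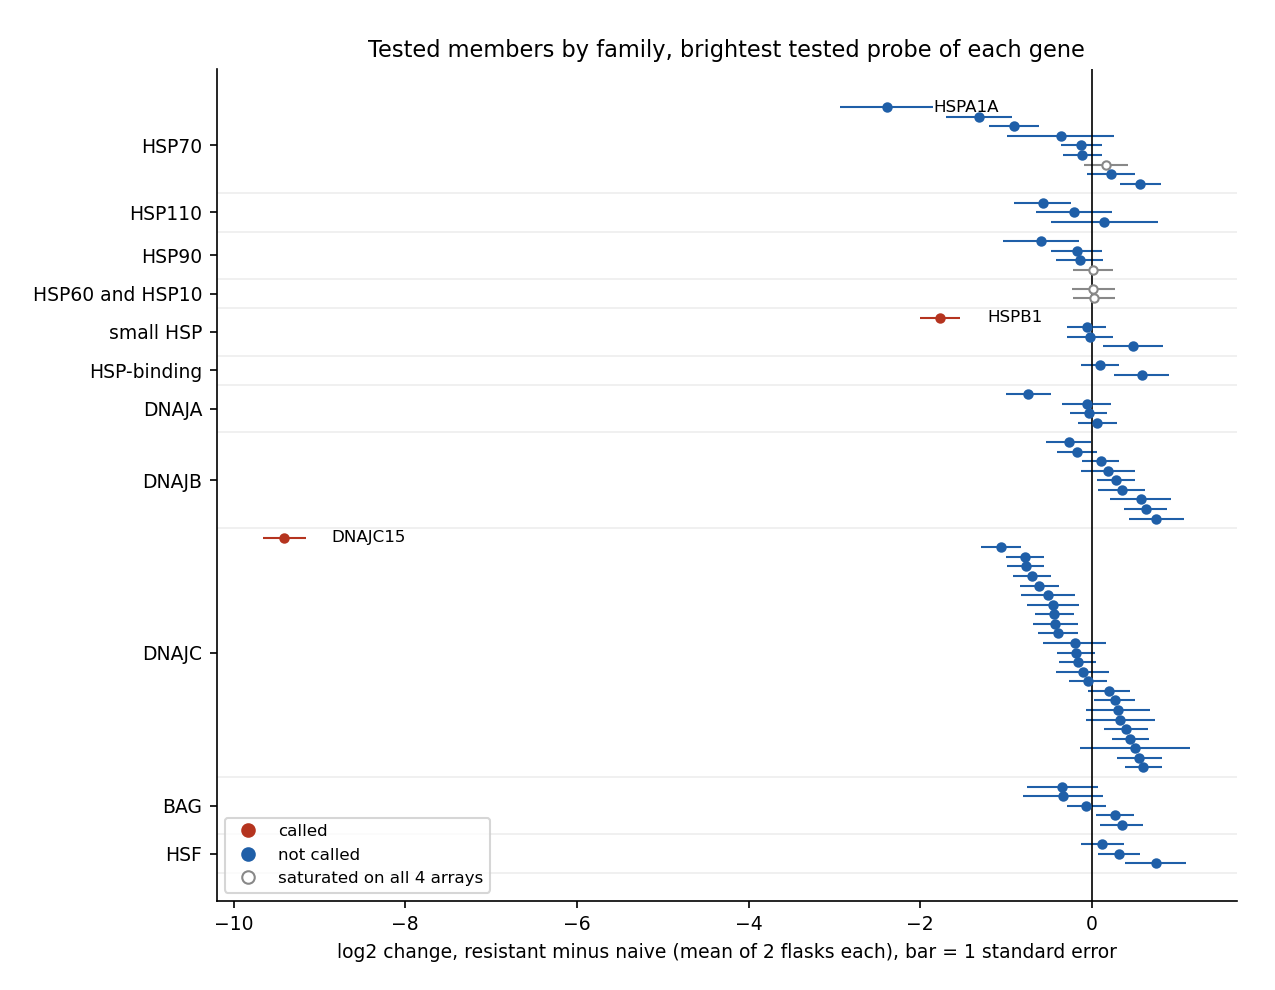
Log2 change (resistant minus naive) of the brightest tested probe of each of the 70 tested genes, by family, with 1 standard error as the bar. HSPB1 and DNAJC15 are called, HSPA1A is lower at -2.39 without a call, and the genes drawn as open symbols are saturated on all 4 arrays.

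Of 11 HSP70 genes, 9 were tested and none was called at its brightest probe, beside 5.47% of all genes. Their median log2 change was -0.13, or -0.24 over the 8 HSP70 genes that were not saturated on all arrays. HSPA8, the constitutive HSP70 of the cytosol, was saturated on all 4 arrays at 3 of its 4 probes, so no fold can be given there, and the file places these 3 on chromosome 7 while the gene lies on 11. In all, 11 of the 111 member probes that could be compared with the chromosome of their gene, from 8 genes, are placed on another one. The remaining HSPA8 probe, near the middle of the transcript, read 4.34 and 3.06 in naive and 3.19 and 2.66 in resistant cells, a log2 change of -0.77 (adjusted p = 0.443). HSPA2, an HSP70 best known from testis, read -4.52 and -5.00 against -5.61 and -6.55, a log2 change of -1.32 (adjusted p = 0.156). HSPA1L, which lies next to HSPA1A and is likewise abundant in testis, read -3.90 and -4.32 against -4.78 and -5.25, a log2 change of -0.91 (adjusted p = 0.182). Both dim genes had lines that did not overlap, yet neither passed the test. HSPA6, an HSP70 that is nearly silent without stress, read -4.31 and -3.81 in naive and -3.67 and -4.0 in resistant cells, so the flasks overlapped, and its probe also matches HSPA7. HSPA13, a microsomal HSP70, was at 0.79 and 1.04 against 1.36 and 1.60, a log2 change of 0.56 (adjusted p = 0.291). A dimmer HSPA13 probe read -1.98 and -3.84 against -2.42 and -2.81, a log2 change of 0.29 with overlapping lines. HSPA14, which works at the ribosome, and HSPA9, the HSP70 of mitochondria, had log2 changes of -0.13 and -0.11. HSPA12A and HSPA12B, distant relatives, were not well above background on any array.

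The 3 HSP110 genes, HSPH1, HSPA4 and HSPA4L, had log2 changes of -0.21, -0.57 and 0.14 and none was called. HSPH1 read 5.21 and 3.98 in naive and 4.26 and 4.51 in resistant cells. HSPA4L read -0.83 and -2.72 against -1.65 and -1.60. In both genes the resistant flasks lay between the 2 naive flasks, which were more than 1 log2 unit apart. HSPA4 read 5.62 and 4.82 against 4.56 and 4.74, with the resistant flasks below both naive ones.

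HSP90AA1, the inducible HSP90 of the cytosol, read 5.85 and 5.20 in naive and 5.37 and 5.32 in resistant cells, with saturation on the array of naive flask 1 alone. Its other 3 probes had log2 changes from -0.46 to -0.07, and naive flask 1 was the highest array at all 4 probes. HSP90AB1, the constitutive form, read 5.79 and 5.23 against 5.40 and 5.34, a log2 change of -0.14 (adjusted p = 0.828). The file places this probe on chromosome 4 while the gene lies on 6. Its other probes, placed on chromosome 6, had log2 changes of -0.43 and -0.08 and were not called. HSP90B1, the HSP90 of the endoplasmic reticulum, was saturated on all arrays at one probe and read 4.22 and 2.70 against 3.40 and 3.53 at the other, a log2 change of 0.01. HSP90AB6P is a pseudogene whose reading may include signal of the parent gene. HSPD1 and HSPE1, the HSP60 and HSP10 of mitochondria, were saturated on all 4 arrays at their brightest probe. The file places the HSPE1 probe on chromosome 15 while the gene lies on 2. A second HSPD1 probe, near the start of the transcript, read 1.63 and 0.53 in naive and 0.22 and -0.16 in resistant cells, a log2 change of -1.05 (adjusted p = 0.266). Of the 70 genes, 7 were saturated on at least 1 array at the brightest probe, beside 2.53% of all genes, and a saturated signal only gives a lower limit.

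Of the small heat shock genes, HSPB1 was the only one called. HSPB6 read -4.45 and -4.27 in naive and -4.53 and -4.32 in resistant cells, and HSPB9, a testis gene, read -4.78 and -4.32 against -4.49 and -4.65. At these probes the flasks of the lines were mixed. A dimmer HSPB9 probe had both resistant flasks above both naive flasks, with a log2 change of 0.65 (adjusted p = 0.271). HSPB11 read 3.05 and 2.16 against 2.99 and 3.18. HSPB3, HSPB7 and HSPB8 were not well above background on any array, and HSPB2 was so on 2 arrays, 1 of each line, so none of these was tested.

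The DNAJ genes form the largest family, with 38 of 42 tested and a median log2 change of -0.05. DNAJC15 was the only one called at its brightest probe, beside 5.47% of all genes. The other 9 of the 10 with the largest changes ranged from -1.06 to 0.75 on the log2 scale. DNAJC18, a J protein with a membrane segment, read -2.84 and -2.75 in naive and -3.99 and -3.71 in resistant cells. Its 3 probes gave log2 changes of -1.06, -0.72 and -1.18, the lines did not overlap at any of them, and none was called (adjusted p = 0.0775, 0.405 and 0.175). DNAJC11, a J protein of mitochondria, read 1.5 in both naive flasks against 0.78 and 0.68, a log2 change of -0.77 (adjusted p = 0.142), with -1.07 at its second probe. DNAJC25 read -2.47 and -2.60 against -3.39 and -3.24, and DNAJC30, a mitochondrial J protein, 0.20 and 0.06 against -0.52 and -0.63. The second probe of DNAJC30 had the opposite sign, with a log2 change of 0.16 and overlapping flasks. DNAJA2, a cytosolic partner of HSP70, read 2.12 and 1.68 against 1.26 and 1.05, a log2 change of -0.74 (adjusted p = 0.220). DNAJC16 had a log2 change of -0.61.

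Among the J proteins with higher levels in the resistant line, DNAJC21, which serves ribosome assembly, read 0.62 and 0.58 in naive and 1.13 and 1.26 in resistant cells. Its 3 probes gave log2 changes of 0.60, 0.86 and 1.06 with no overlap of the lines and adjusted p-values of 0.232, 0.156 and 0.155. DNAJB4, a heat-inducible J protein, read -2.24 and -3.0 against -1.80 and -1.93, a log2 change of 0.75 (adjusted p = 0.293). At a dimmer DNAJB4 probe the log2 change was 0.46 and the lines overlapped. DNAJB14 of the endoplasmic reticulum read 0.35 and 0.66 against 0.99 and 1.27, with log2 changes of 0.62 and 0.52 at its 2 probes. Neither gene passed the test. The DNAJB family had a median log2 change of 0.28 and the DNAJC family one of -0.18, and 7 of 9 DNAJB genes but 9 of 25 DNAJC genes had a positive sign. That difference between families was not tested. DNAJA1, the heat-inducible partner of HSP70, was saturated on the array of naive flask 1 and read 5.32, 5.52 and 5.60 on the other 3 in the order naive, resistant, resistant.

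All 5 BAG genes on the array were tested and none was called. BAG3, which joins HSP70 to small HSPs and is strongly induced by stress, read 0.72 and -0.43 in naive and -0.26 and -0.14 in resistant cells. BAG2, an inhibitor of the ubiquitin ligase CHIP, read 2.32 and 0.97 against 1.32 and 1.31. In both the resistant flasks lay between the naive flasks. BAG4 read -1.44 and -1.85 against -1.35 and -1.25, a log2 change of 0.35 (adjusted p = 0.513), and BAG5 had one of 0.27 at its brightest probe and of -0.11 and -0.16 at its other probes. BAG1, which was saturated on the array of naive flask 1, had one of -0.06.

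HSF1, the main regulator of the heat shock response, read 4.49 and 4.68 in naive and 4.76 and 5.05 in resistant cells. The resistant flasks were the higher ones, by 0.32 on the log2 scale with a standard error of 0.24, and HSF1 was not called (adjusted p = 0.533). HSF2 read 2.17 and 1.76 against 2.03 and 2.14 at its brighter probe, and -1.86 and -1.69 against -2.39 and -2.56 at its other probe, where the log2 change was -0.70 (adjusted p = 0.188). The 2 probes thus had opposite signs. HSF4, best known from the lens, read -3.62 and -2.71 against -2.47 and -2.37, a log2 change of 0.74 (adjusted p = 0.340). These arrays measure the RNA of the factors, and HSF1 is controlled largely at the protein level. HSPBP1 had log2 changes of 0.09 and -0.01 at its 2 probes, and HSPBAP1 had one of 0.58.

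By compartment, the 10 members of the endoplasmic reticulum had a median log2 change of 0.06 and none was called, beside 5.47% of all genes. HSPA5, also known as BiP and GRP78 and the main chaperone of that compartment, read 3.94 and 2.06 in naive and 2.75 and 2.52 in resistant cells at its brighter probe. At its other probe it read 2.66 and 2.10 against 2.00 and 2.18. The gap between the naive flasks, 1.88 and 0.56 on the log2 scale, was larger than the log2 changes of -0.36 and -0.29 between lines. DNAJB11 and DNAJC3, partners of HSPA5, read 3.46 and 2.91 against 3.49 and 3.57, and 0.23 and -0.24 against 0.47 and 0.62. DNAJC10, which reduces disulfides, had a log2 change of -0.45. DNAJB9, DNAJB12 and DNAJC1 had log2 changes of 0.10, -0.18 and -0.11.

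Among 8 members of the mitochondrial folding and import machinery, a list without DNAJC30, DNAJC15 alone was called, and lower. Of all genes, 5.47% were called in either direction. The median log2 change of the 8 members was -0.01, or -0.07 over the 6 that were not saturated on all arrays. DNAJC19, a relative of DNAJC15 that like it belongs to the mitochondrial import machinery, read 1.73 and 1.37 in naive and 1.80 and 2.10 in resistant cells, with log2 changes of 0.40 and 0.38 at its 2 probes (adjusted p = 0.464 and 0.441). DNAJA3 read 3.80 and 3.69 against 3.73 and 3.68, the narrowest spread of the 8. HSPA9 and DNAJC4 had log2 changes of -0.11 and 0.20.

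**Figure D3:**
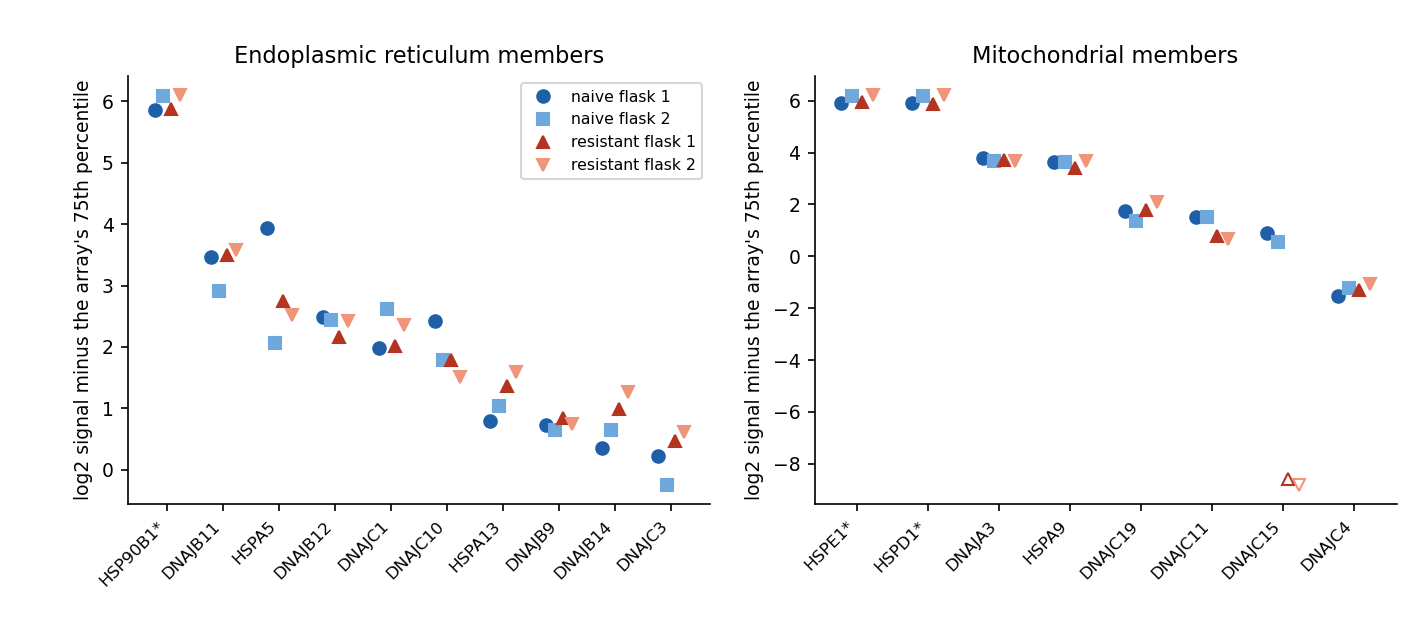
Level in each flask of the members of the endoplasmic reticulum and of mitochondria, as log2 signal minus the array's 75th percentile, at the brightest tested probe. Asterisks mark genes saturated on all 4 arrays and open symbols a line that was not well above background. DNAJC15 alone drops to the background in the resistant flasks, and HSPA5 spreads from 2.06 to 3.94 within the naive line.

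A list of 24 textbook heat-inducible genes, made of members and of partners such as STIP1, FKBP4 and CHORDC1, gave 22 tested genes. HSPB1 alone was called, and lower in the resistant line. That share of the 22 is near the 5.47% of all genes called (2.49% higher and 2.98% lower). Over the list the median log2 change was -0.16, beside -0.01 over all genes. The sign of that median was positive with scale normalization (0.04) and without naive flask 1 (0.05). The median was -0.21 over the 19 genes not saturated on all arrays, -0.36 when saturated probes were left out and other probes of a gene took their place, and -0.52 without naive flask 2. The naive flasks differed from each other over this list. Naive flask 1 was above naive flask 2 for 17 of the 22, by a median of 0.62 on the log2 scale, while over all genes 43.4% were above and the median was -0.09. Among the 19 that were not saturated on all arrays, naive flask 1 was the highest of the 4 arrays for 15, beside 26.6% of all genes. Both resistant flasks lay within the range of the naive flasks for 9 of the 19, a count given without a share over all genes. A gap of at least 2-fold was seen for 5 of the 22, beside 4.02% of all genes, in HSPA4L (1.89), HSPA1A (1.48), HSPH1 (1.23), BAG3 (1.15) and CHORDC1 (1.15). In these 5 naive flask 1 was the higher one, and naive flask 2 was 2-fold higher for 0 of the 22, beside 9.35% of all genes. Each flask is 1 array, so this difference has no test, and 0 of the 22 differed by 2-fold between the resistant flasks, beside 2.05% of all genes. Its part in the comparison of the lines was not tested.

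**Figure D4:**
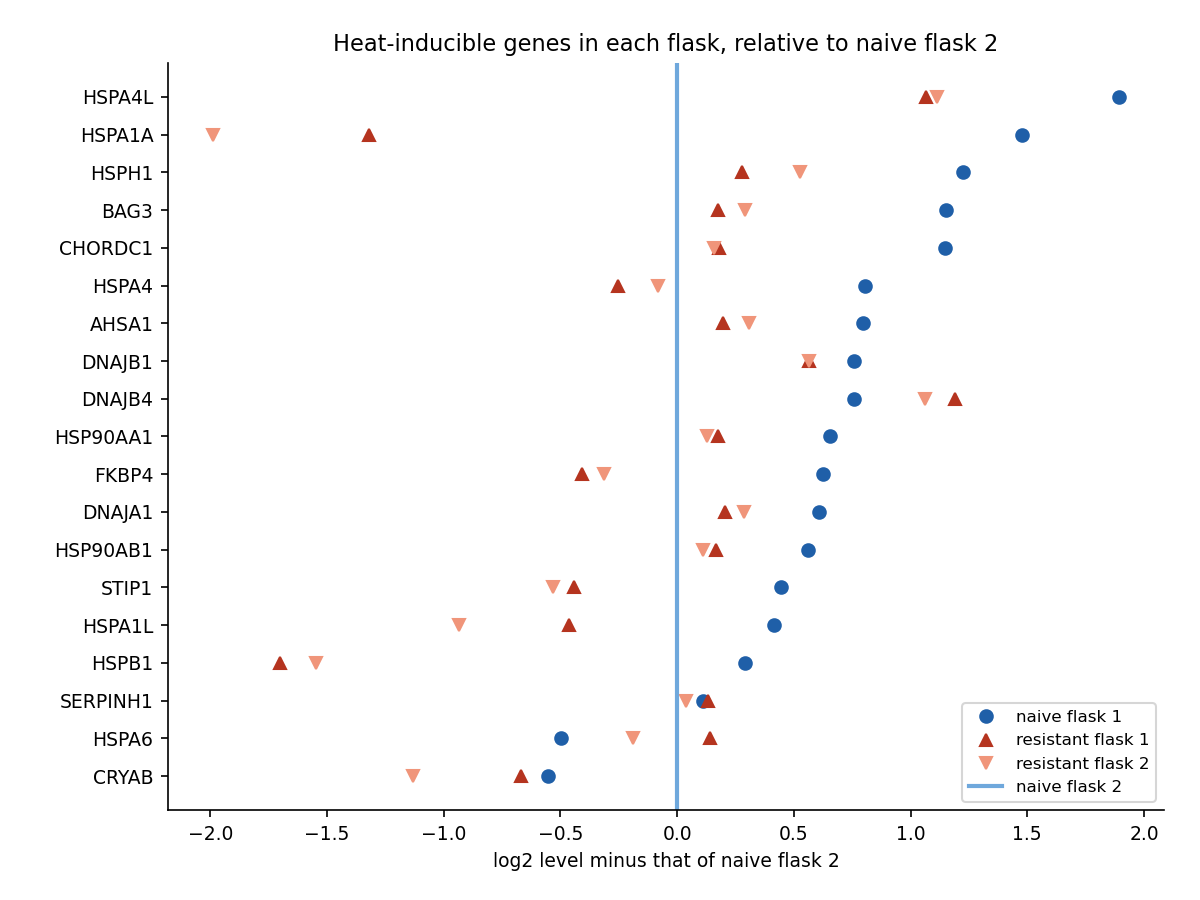
Log2 level of naive flask 1 and of both resistant flasks minus that of naive flask 2, for the 19 heat-inducible genes that were tested and not saturated on all 4 arrays. Naive flask 1 stands to the right for most genes, and the resistant flasks lie furthest to the left for HSPA1A and HSPB1, less far for CRYAB and HSPA1L, and furthest to the right for HSPA4L and DNAJB4.

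Further members were called when a naive flask was left out, and which ones depended on the flask. Without naive flask 1, 7 of the 70 members were called, beside 13.5% of all genes. DNAJB4, DNAJC28 and HSPA4L were then higher and HSPB1, HSPA1A, DNAJC15 and DNAJC18 lower. Without naive flask 2, 10 were called, beside 16.6% of all genes. DNAJB2 and HSF4 were then higher and HSPB1, HSPA1A, HSPA1L, HSPA2, HSPA5, BAG2, DNAJC15 and DNAJC18 lower. The 4 genes called lower in both were HSPA1A, HSPB1, DNAJC15 and DNAJC18. In these fits the lone naive flask is assumed to vary like the resistant flasks, which differed less from each other than the naive flasks did. Neither share of members called was far from the background, and the difference was not tested.

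Of 42 other chaperone and cochaperone genes, none was called by limma in either direction, beside 5.47% of all genes. The 42 include the subunits of the cytosolic chaperonin CCT and of prefoldin. An unadjusted p below 0.05 in limma was found for 6 of them, beside 19.5% of all genes. The median log2 change was -0.06. It ranged from NUDC, an HSP90 cochaperone, which read 5.04 and 4.61 in naive and 3.94 and 4.05 in resistant cells (log2 change of -0.83, adjusted p = 0.167), to CCT6B, a CCT subunit of testis, at -2.09 and -1.69 against -1.36 and -1.04 (log2 change of 0.69, adjusted p = 0.256). TRAP1, the HSP90 of mitochondria, had a log2 change of -0.77 (adjusted p = 0.149). The 10 members without a tested probe were HSPA12A, HSPA12B, HSPB2, HSPB3, HSPB7, HSPB8, DNAJB3, DNAJB7, DNAJB8 and DNAJC6, and apart from HSPB2 their probes were not well above background on any array.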

How the data were processed

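Gene expression was measured on 4 one-colour Agilent arrays, 2 flasks per line, grouped by the phenotype in the labels. The authors deposited the Feature Extraction output of each array, whose processed signal is a background-subtracted intensity. They also deposited a log2 table, set to each array's 75th percentile in GeneSpring. From the intensities, control and outlier spots were left out, spots of a probe were averaged in log2, each array's 75th percentile was subtracted, and lines were compared with lmFit and eBayes (limma 3.58.1, R 4.3.3), adjusted by Benjamini-Hochberg over 28221 probes. The fit was tested on simulated data. Arrays have no read depth, and their number limits the precision. A bound against background uses, on each array, the lowest signal well above background or the probe's own signal if higher.

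The members, lists and alternatives were chosen with earlier results of these data known. Named are called members, tested members outside the DNAJ family, heat-inducible, endoplasmic reticulum, mitochondrial, saturated and dim members, the 10 DNAJ genes with the largest changes, and the extremes of the other chaperones. DNAJB2, DNAJB6, DNAJC28 and TRAP1 were added after their values were seen. Alternatives covered normalization, background correction, filters, the deposited table, the methods' t-test, thresholds, the replicate number as a block and each flask left out. Current names were found by accession for 77 of 80 genes. Protein sequences and a genome were not used here.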

Additional observations from a re-analysis of the deposited data

How the results depend on the processing

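The count of called probes in all was 760 when a probe had to be well above background on all 4 arrays, 675 at an adjusted p below 0.01, and 0 with normexp background correction in limma and with the methods' t-test adjusted by Benjamini-Hochberg. Under these settings 1, 1, 0 and 0 member genes were called, beside 3.16%, 2.5%, 0% and 0% of all genes. Of the member probes 3, 3, 0 and 0 were called. The gene called was HSPB1 under the first and DNAJC15 under the second. At an unadjusted p below 0.05 normexp gave 3 member genes and 7 member probes, and the t-test 9 and 15. These counts are given without a share over all genes and are not read as a result about the members. When the tested probes of a gene were averaged 4 members were called, beside 5.5% of all genes. DNAJC15, HSPA1A and HSPB1 were then lower and DNAJC22 higher. When each flask was left out in turn the counts ran from 728 to 4536 for all probes, from 1 to 10 for member genes and from 3 to 25 for member probes, lowest without resistant flask 2 and highest without naive flask 2. Without resistant flask 1 the counts of members were as low, at 1 and 3. A fit with the replicate block called 1375 probes in all and 5.05% of all genes. It called 8 member probes and 3 member genes, with HSPA1A (log2 change of -2.39) beside HSPB1 and DNAJC15. Deviations of same-numbered flasks correlated by 0.12 over 2 pairs, which are too few to decide whether the numbers mark a true pairing. The median log2 change of the other chaperones was 0.093 with scale normalization. With each flask left out it ran from -0.24 to 0.030, and that of the heat-inducible list from -0.52 to 0.052.

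Of 51 named members that were neither called nor saturated on all 4 arrays at the brightest probe, the sign of the log2 change turned in at least 1 alternative for 25. With normexp it was 0.23 for DNAJC22, 0.12 for HSPA2, 0.050 for HSPA1L, 0.24 for HSP90AB6P, 0.25 for HSPB6, 0.27 for HSPB9 and -0.036 for the unsaturated probe of HSP90B1. With bright local backgrounds reset it was 0.024 for HSPB6 and 0.091 for HSPB9. With scale normalization it was 0.16 for BAG1, 0.16 for DNAJA1, 0.14 for DNAJA3, 0.049 for DNAJC1, 0.037 for HSPA14, 0.074 for HSPA9, 0.040 for HSP90AA1, 0.075 for HSP90AB1 and 0.0019 for HSPB9. With quantile normalization it was 0.016 for DNAJA3, 0.016 for HSPB6 and 0.053 for HSPB9, and with the median shift 0.0075 for DNAJA3 and 0.023 for HSPB9. When the tested probes of a gene were averaged it was -0.0017 for BAG5, 2.05 for DNAJC22, -0.29 for HSF2 and 0.31 for HSPB9.

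With each flask left out in turn the log2 change ran from -0.92 to 0.23 for BAG3, from -1.01 to 0.34 for BAG2, from -0.16 to 0.029 for BAG1, from -0.36 to 0.25 for DNAJA1 and from -0.095 to 0.020 for DNAJA3. It ran from -0.19 to 0.56 for DNAJB1, from -0.43 to 0.21 for DNAJC1, from -0.42 to 1.43 for DNAJC28, from -0.086 to 0.33 for HSF2 and from -0.0044 to 0.19 for HSPBP1. Among HSP110 and HSP70 genes it ran from -0.82 to 0.40 for HSPH1, from -0.80 to 1.09 for HSPA4L, from -1.30 to 0.58 for HSPA5, from -0.29 to 0.043 for HSPA14, from -0.24 to 0.018 for HSPA9 and from -0.025 to 0.47 for HSPA6. For the remaining families it ran from -0.50 to 0.15 for HSP90AA1, from -0.42 to 0.14 for HSP90AB1, from -0.76 to 0.77 for the unsaturated probe of HSP90B1, from -0.16 to 0.041 for HSPB6 and from -0.26 to 0.21 for HSPB9. The cause of these shifts was not tested.

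Signal over background limits the dim members, for which only bounds can be given, and saturation limits HSPA8, HSPD1, HSPE1 and HSP90B1 at their brightest probes, where no direction can be given. The shift to the 75th percentile takes that level as equal in both lines. The median log2 change of all tested probes moved from -0.020 to 0.083 with scale normalization and to 0.13 with normexp.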

Other observations

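The neighbours of the 4 genes with a called probe were looked up after those calls were seen, as the 3 protein-coding genes on either side in RefSeq (GRCh38.p14). Around HSPA1A, HSPB1 and DNAJC22, 4, 6 and 5 neighbours were tested and none was called at its brightest probe in limma, although 1 of the 2 probes of ZP3, near HSPB1, was called lower. Around DNAJC15 FAM216B and LACC1 were the 2 neighbours with a tested probe, and both were called lower. EPSTI1, ENOX1 and CCDC122 were not tested, and LOC124903164 had no probe. FAM216B read -3.47 and -4.10 in the naive flasks and -8.57 and -8.24 in the resistant flasks, at least 6.44-fold lower (adjusted p = 0.00197). LACC1 read -5.28 and -4.64 in naive and -7.15 and -7.26 in resistant cells, at least 2.85-fold lower (adjusted p = 0.0160). In the resistant line neither was well above background, so both entered the test through the naive line alone. Each rests on 1 probe. Of all genes, 2.98% were called lower, a share that is not limited to genes tested through the naive line alone and so is no like comparison.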
